A study of Danio rerio with 6 samples.

Results

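The 43 genes described here encode parts of the mitochondrion. Of these, 10 targets are subunits and assembly factors of the respiratory chain and ATP synthase, and 13 are proteins of the mitochondrial ribosome. Another 3 are import proteins and 17 belong to the solute carrier family SLC25, mostly of the inner membrane. All 43 were chosen by a rule on names, set with earlier results of these data known. It takes array targets with a RefSeq mRNA identifier, by the start of their zebrafish symbol. The starts are nduf, sdha to sdhd, uqcr, cox and a digit, atp5, mrpl, mrps, timm, tomm and slc25. The 43 genes are among 2663 such targets with a zebrafish symbol and 37157 targets on the array, and include no uqcr gene of complex III. Targets of these families under other identifiers are not covered. Among those, the study lists ATP5J and COX6A2 as higher after irradiation and SLC25A14 as lower. RNA came from pools of 50 whole larvae of the wild-type AB strain at 120 hpf (hours post fertilization), irradiated with 5 Gy of Co-60 gamma rays at 26 hpf (3 pools) or mock irradiated (0 Gy, 3 controls), with 1 one-colour NimbleGen array per pool. Replicates were numbered 1 to 3 in each group and, per the methods of the study, came from separate clutches. The comparison asks which genes differed in larvae at a dose below that of gross malformation.

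Mitochondria make ATP by passing electrons from NADH and succinate along complexes I to IV and letting the resulting proton gradient drive ATP synthase. A few core subunits are translated inside the organelle by its own ribosome, whereas all ribosomal proteins of that ribosome, most respiratory subunits and every carrier are encoded in the nucleus and imported through the TOM and TIM complexes. Demand for these proteins is high in muscle, heart, neurons and photoreceptors, and a whole larva mixes all of them.

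The larval tissues could be checked with few markers. Skeletal muscle (6 targets), lens (8), neurons and synapse (8), heart (3), photoreceptors (2), erythrocytes (1) and leukocytes (1) had targets with symbols on the marker lists, and none of the listed liver or exocrine pancreas genes did. Median probe intensity was 355 to 357, and with 1 array per pool their number sets the precision. Across all targets, 5 Gy replicate 2 correlated at r = 0.893 to 0.920 with every other pool. Control replicate 3 stood apart from the other controls, at 0.897 and 0.905 with replicates 1 and 2, which correlated with each other at 0.977. It correlated at 0.987 with 5 Gy replicate 3 and at 0.957 with 5 Gy replicate 1. For several members whose description turns on control replicate 3, though not for all, the value without it is given.

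More mitochondrial targets were higher than lower at 5 Gy, by small amounts, and few passed the test. Of the 43, 3 rose, none fell and 40 did not pass in limma, where a target passes with an unadjusted p below 0.05 together with a difference of at least 1.5-fold, as in the methods of the study. They were cox5b2 of cytochrome c oxidase, mrpl20 of the mitochondrial ribosome and slc25a24l of the carriers. The study's own list of altered probes already holds these 3 targets, each as higher. Over all targets 1.15% rose, 2.89% fell and 4.04% changed in either direction by the same rule. Of the 2663 targets with a symbol, 40 rose and 48 fell. No member had an adjusted p under 0.05 (smallest 0.905 from limma), while 3 had an unadjusted p under 0.05, and the methods' t-test also called 3, the same genes, where it called 0.53% of all targets higher and 1% lower. The log2 ratio (5 Gy over control) exceeded 0 for 33 of 43 members (76.7%), against 46.6% of all targets and 54.1% of the targets with a symbol. Its median was 0.17 over the members, -0.03 over all targets and 0.04 over the targets with a symbol. These are descriptions with no test, since genes of 1 pool are not replicates. In whole larvae, a change in the number of cells of a type and a change in RNA per cell cannot be told apart.

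**Figure D1:**
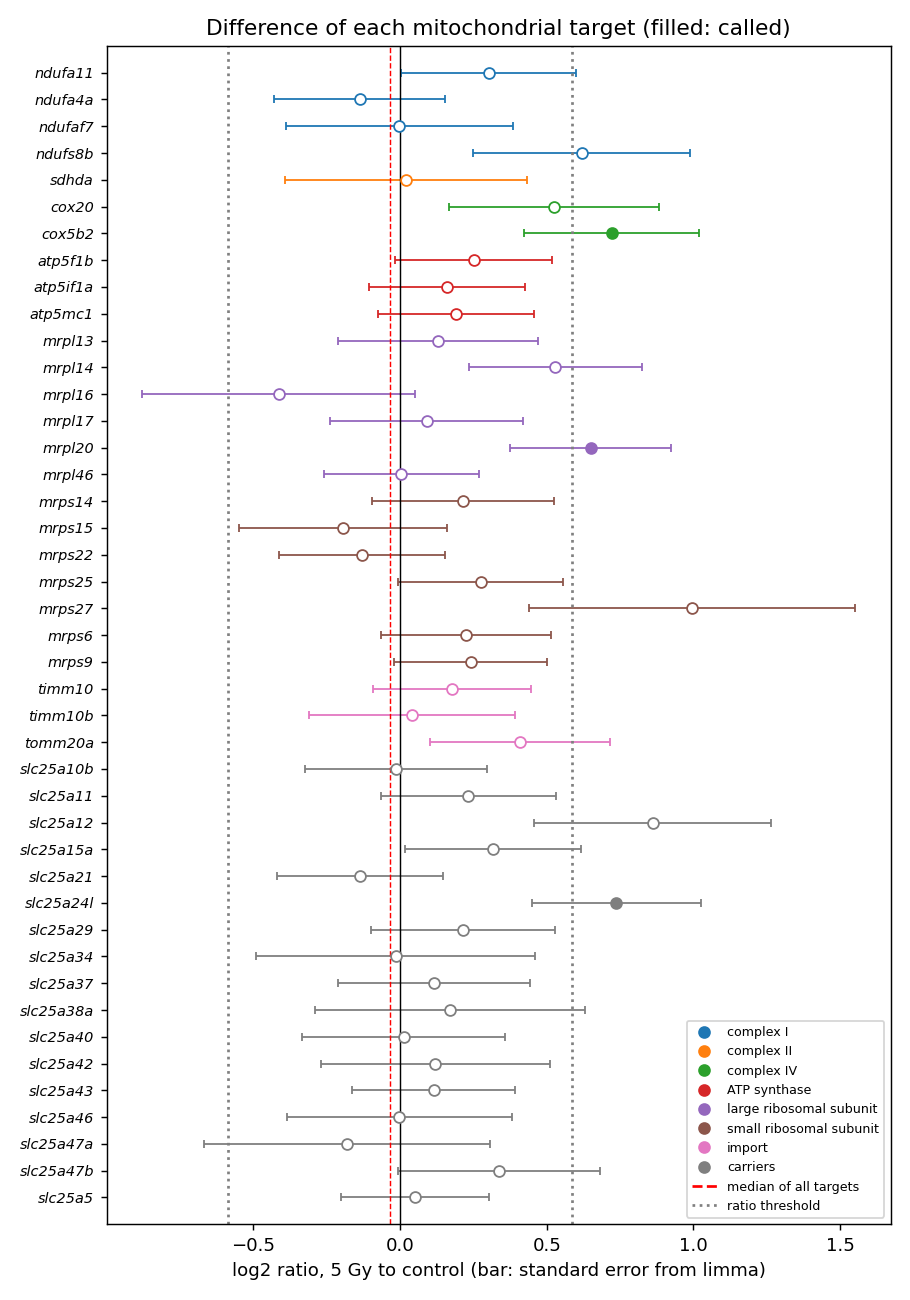
Log2 ratio of 5 Gy to control for each of the 43 targets, with the standard error from limma as a bar, coloured by group of proteins. Filled points mark the 3 targets that passed both thresholds (cox5b2, mrpl20 and slc25a24l). 33 points lie above 0, and the dashed line is the median of all targets at -0.03.

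The ratio was smaller than its own standard error for 32 of 43 members, and the standard errors ran from 0.252 to 0.555. The 95% interval from limma included 0 for 40 members. It excluded a loss as large as the threshold for 24 members and a gain of that size for 3, namely slc25a21, ndufa4a and mrps22.

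Cytochrome c oxidase, complex IV, passes electrons to oxygen. Cox5b2, a zebrafish paralog of its nuclear-encoded subunit Vb (NM_001045357), had log2 values of 12.08, 12.37 and 12.37 in control replicates 1 to 3 and 13.34, 13.04 and 12.60 at 5 Gy. All 3 irradiated pools lay above all 3 controls, with 5 Gy replicate 3 the closest to them. The mean went from 12.27 ± 0.164 to 13.00 ± 0.371 (SD, n = 3 pools each), a log2 ratio of 0.72 (standard error 0.298, unadjusted p = 0.041 and adjusted p = 0.905 from limma, exact permutation p = 0.1, two-sided, the smallest that 3 against 3 allow) or 1.65-fold. The 12 probes of the target were all higher at 5 Gy, by 0.35 to 0.89. When pools of a number were treated as a block, the ratio was unchanged but the p-value missed its threshold (unadjusted p = 0.0511 from limma). By the methods' t-test cox5b2 passed. Without control replicate 3 the ratio was 0.77 and did not pass either (unadjusted p = 0.0514 from limma). Cox20, which helps insert the mitochondrially made subunit 2 into the same complex, had values of 10.16, 9.74 and 10.11 in controls and 11.20, 10.30 and 10.08 at 5 Gy. Its groups overlapped, because 5 Gy replicate 3 lay among the controls, and the ratio of 0.52 (standard error 0.358) did not pass, although all 12 of its probes were higher on average.

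Complex I, which takes electrons from NADH, had 4 targets and none passed. Ndufs8b, a paralog of an iron-sulfur core subunit, had 6.34, 6.49 and 6.49 in controls and 7.83, 6.66 and 6.69 at 5 Gy. The groups did not overlap (exact permutation p = 0.1, two-sided), but 1 pool, 5 Gy replicate 1, stood more than 1 log2 unit above the others, and the ratio of 0.62 (standard error 0.369) did not pass in limma. Without that pool it was 0.23. This target is among the dimmest 25% of the array, so its level is not shown to lie above background. Ndufa11, an accessory subunit of the membrane arm, had 11.96, 11.86 and 12.52 in controls and 12.58, 12.20 and 12.46 at 5 Gy, where control replicate 3 sat with the irradiated pools (ratio 0.30, standard error 0.298). Without that control the ratio was 0.51, and it did not pass either. The ratio was -0.14 (standard error 0.292) for ndufa4a, a paralog of a protein now assigned to complex IV in mammals, which is measured by 2 probes only, 1 higher and 1 lower. Ndufaf7, an assembly factor that methylates a complex I subunit and was picked after its values were seen, had a ratio of 0.00 in the mean, with 9.42 in 5 Gy replicate 1 against 8.34 and 8.09 in the other irradiated pools.

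Succinate dehydrogenase, complex II, was represented by sdhda, a paralog of 1 of its membrane anchors. Its values were 8.18, 8.13 and 7.92 in controls and 9.02, 7.75 and 7.52 at 5 Gy. The controls were close together, whereas the irradiated pools held both the highest value and the lowest values of all 6. The ratio was 0.02 (standard error 0.413), and it was -0.44 without 5 Gy replicate 1.

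ATP synthase had 3 targets with similar small differences. Atp5f1b, the catalytic beta subunit, had 14.96, 14.66 and 15.06 in controls and 15.27, 15.15 and 15.01 at 5 Gy (ratio 0.25, standard error 0.267), and each of its 12 probes was higher on average. Its probes reached 15.74, where the highest value of any probe was 15.94 to 15.99 on the 6 arrays. Differences can be compressed so near the top of the scale. Atp5mc1, a subunit of the rotating c ring, had 13.56, 13.43 and 13.63 in controls and 13.97, 13.63 and 13.60 at 5 Gy (ratio 0.19, standard error 0.266). Atp5if1a, a paralog of the inhibitor that binds the enzyme when the gradient collapses, had a ratio of 0.16 (standard error 0.265). In all 3, control replicate 2 was the lowest pool and the groups overlapped, and the difference within the pools numbered 3 was slightly below 0 (-0.04, -0.04 and -0.17).

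**Figure D2:**
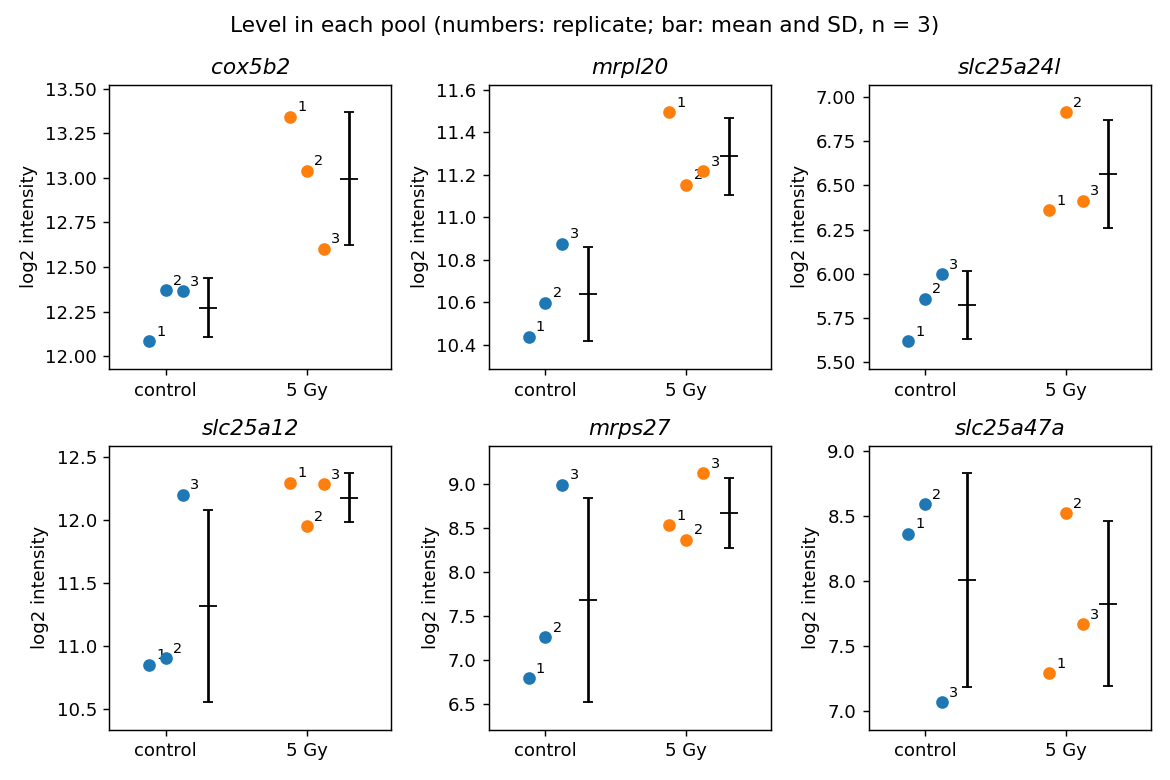
Log2 intensity in each pool for 6 targets, with the replicate number beside each point and the mean and SD of 3 pools as a bar. The upper row holds the 3 targets that rose, whose groups do not overlap. In the lower row control replicate 3 lies with the irradiated pools for slc25a12 (12.20) and mrps27 (8.997), and at the bottom for slc25a47a (7.07).

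The mitochondrial ribosome had 6 targets of its large subunit and 7 of its small subunit, of which 1 rose and 12 did not pass. The shares over all targets were 1.15% higher and 2.89% lower. Mrpl20 of the large subunit (NM_001045359) had 10.44, 10.60 and 10.88 in controls and 11.49, 11.15 and 11.22 at 5 Gy. The 3 irradiated pools all lay above the controls, of which replicate 3 was the highest. The mean went from 10.64 ± 0.221 to 11.29 ± 0.181 (SD, n = 3 each), a log2 ratio of 0.65 (standard error 0.274, unadjusted p = 0.0447 and adjusted p = 0.905 from limma, exact permutation p = 0.1, two-sided) or 1.57-fold, and all 11 of its probes were higher. It did not pass in limma with pools blocked by number (unadjusted p = 0.0623). Without control replicate 3 mrpl20 passed, at a ratio of 0.77 (unadjusted p = 0.0316 from limma). In that setting 7.81% of all targets rose. Mrpl14 had 9.88, 9.26 and 9.96 in controls and 10.25, 10.29 and 10.15 at 5 Gy, with no overlap and a ratio of 0.53 (standard error 0.295) that did not pass, from 4 probes, all higher.

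The largest ratio among the members belonged to mrps27 of the small subunit, and it depended on which controls were used. Its values were 6.79, 7.26 and 8.997 in controls and 8.53, 8.37 and 9.13 at 5 Gy. Control replicates 1 and 2 lay well below every irradiated pool, but control replicate 3 lay above 2 of the 3 irradiated pools. The control mean was 7.68 ± 1.16 and that at 5 Gy 8.68 ± 0.399 (SD, n = 3 each), a ratio of 0.995 (standard error 0.555, unadjusted p = 0.110 from limma) that did not pass, although all 12 probes were higher. It passed in limma with pools blocked by number (unadjusted p = 0.0233), and without control replicate 3, where the ratio was 1.65 (unadjusted p = 0.00159). With the probe-order slope described further on as a covariate the ratio was 0.17. Irradiated minus control, pair by pair, came to 1.74, 1.11 and 0.13 in replicates 1, 2 and 3.

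Other ribosomal proteins were picked after their values were seen. For mrps14 and mrps25, 5 Gy replicate 1 lay high over tight controls. Mrps14 had 10.19, 10.21 and 10.24 in controls, a range of 0.0545 and the narrowest of any member, and 10.95, 10.21 and 10.12 at 5 Gy (ratio 0.21, standard error 0.311). Mrps25 had 11.18, 11.12 and 11.07 in controls and 11.72, 11.37 and 11.10 at 5 Gy (ratio 0.28, standard error 0.280). In both, 5 Gy replicate 1 was the highest pool. The 5 Gy replicate 2 lay among the controls for mrps14 and above all of them for mrps25. The 5 Gy replicate 3 lay below the controls for mrps14 and among them for mrps25. Mrps9 had all irradiated pools above the controls by a narrow margin (10.86, 11.11 and 10.81 against 10.67, 10.78 and 10.60, ratio 0.24, standard error 0.260, not past the test). Mrpl16 went the other way in the mean, with 11.88, 11.88 and 12.52 in controls and 12.44, 10.68 and 11.91 at 5 Gy. Its ratio was -0.41 (standard error 0.465), with 11 of 12 probes lower. Control replicate 3 was its highest pool and 5 Gy replicate 2 its lowest. The remaining ribosomal targets (mrpl13, mrpl17, mrpl46, mrps6, mrps15 and mrps22) had ratios from -0.19 to 0.23, and none passed.

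Import into mitochondria was represented by 3 targets. Tomm20a, a paralog of the outer membrane receptor for presequences, had 9.62, 9.26 and 9.74 in controls and 10.38, 9.73 and 9.74 at 5 Gy. Its ratio was 0.41 (standard error 0.308), all 11 probes were higher on average, and 5 Gy replicates 2 and 3 lay level with the highest control. The small intermembrane space chaperones timm10 and timm10b had ratios of 0.18 (standard error 0.270) and 0.04 (standard error 0.350). None of the 3 passed.

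Most SLC25 carriers move metabolites, nucleotides and ions across the inner membrane. The median range of the 17 targets over the 3 controls was 0.678, close to the 0.676 of all targets and the 0.618 of the targets with a symbol. It was 0.477 for import targets, 0.383 for respiratory chain and ATP synthase targets and 0.349 for ribosomal targets, and these differences were not tested. Of 17 carriers 1 rose, none fell and 16 did not pass, with a median ratio of 0.12. Over all targets 1.15% rose and 2.89% fell. Slc25a24l (NM_001003884), a relative of the calcium-dependent carrier of ATP-Mg and phosphate, had 5.62, 5.86 and 5.997 in controls and 6.36, 6.91 and 6.41 at 5 Gy, so every irradiated pool lay above every control. The mean went from 5.83 ± 0.192 to 6.56 ± 0.305 (SD, n = 3 each), a ratio of 0.74 (standard error 0.288, unadjusted p = 0.0331 and adjusted p = 0.905 from limma, exact permutation p = 0.1, two-sided) or 1.67-fold, and it also passed in the blocked fit. The target was among the dimmest 25% of the array, so the size of the difference is not settled. Of its 9 probes 8 were higher and 1 lower, with ratios from -0.56 to 1.34, a wider spread than for cox5b2 or mrpl20.

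**Figure D3:**
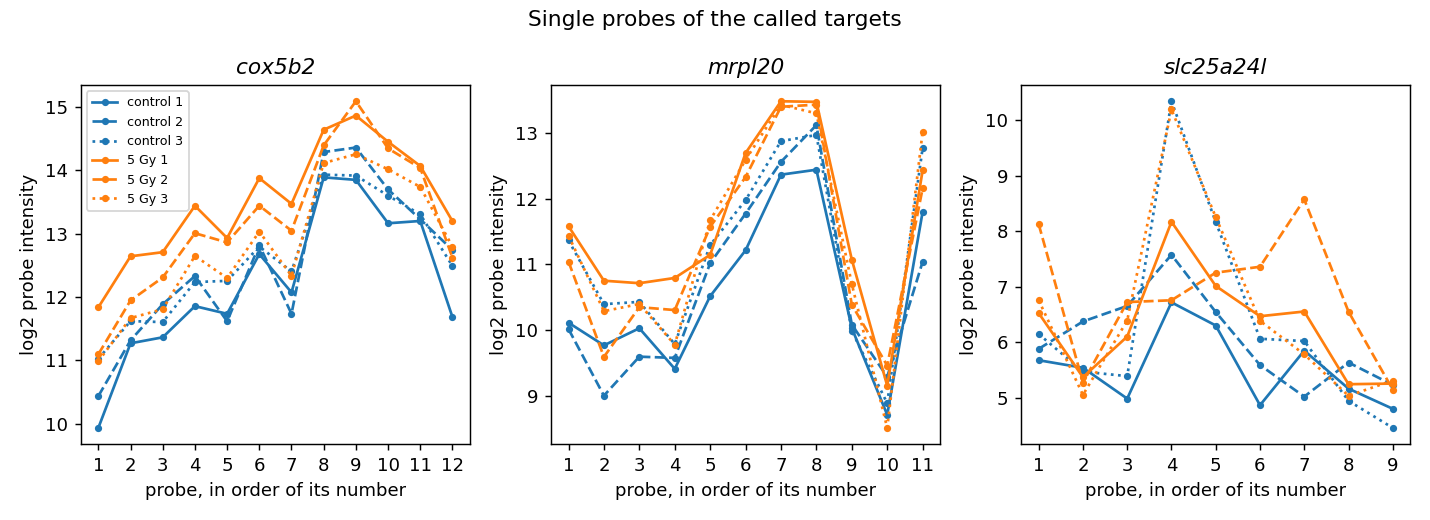
Log2 intensity of every probe of the 3 targets that rose, in the order of the number in the probe identifier, with control pools in blue and 5 Gy pools in orange (solid, dashed and dotted lines for replicates 1, 2 and 3). The lines of cox5b2 and mrpl20 run in parallel over most probes, whereas those of slc25a24l cross, with its probe ratios between -0.56 and 1.34.

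Slc25a12, a carrier that exchanges aspartate for glutamate in the malate-aspartate shuttle, showed the same arrangement of pools as mrps27. Its values were 10.85, 10.90 and 12.20 in controls and 12.30, 11.95 and 12.29 at 5 Gy. Control replicate 3 lay 1.33 above the mean of the other controls and within the range of the irradiated pools. The ratio of 0.86 (standard error 0.405, unadjusted p = 0.0651 from limma) did not pass, and all 12 probes were higher. It passed in limma with pools blocked by number (unadjusted p = 0.0349) and without control replicate 3, where it was 1.303 (unadjusted p = 0.00228), and it was 0.37 with the slope covariate. Slc25a15a, a paralog of the ornithine carrier of the urea cycle, had 8.96, 9.24 and 9.35 in controls and 9.64, 9.77 and 9.08 at 5 Gy (ratio 0.32, standard error 0.300).

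The paralogs slc25a47a and slc25a47b, whose mammalian counterpart is a carrier of liver, did not follow each other. Slc25a47a had 8.37, 8.59 and 7.07 in controls and 7.29, 8.52 and 7.67 at 5 Gy, with control replicate 3 the lowest pool of all. Slc25a47b had 7.89, 8.13 and 8.58 in controls and 8.21, 9.08 and 8.32 at 5 Gy, where control replicate 3 was the second highest. Their ratios were -0.18 (standard error 0.486) and 0.34 (standard error 0.344), and -0.65 and 0.53 without control replicate 3. The difference between the paralogs was not tested, and neither passed.

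Other carriers, picked after their values were seen, have known roles. Slc25a5, an ADP/ATP translocase that exports ATP to the cytosol, had 15.63, 15.56 and 15.72 in controls and 15.62, 15.71 and 15.74 at 5 Gy (ratio 0.05, standard error 0.252, 95% interval -0.53 to 0.63). Its probes reached 15.99, and the highest value of any probe was 15.94 to 15.99 on the 6 arrays, so this target was read near the top of the scale, where differences can be compressed. Slc25a37, the mitoferrin that brings iron in for haem synthesis in erythroid cells, had a ratio of 0.12 (standard error 0.327) and lay among the dimmest 25% of targets. Slc25a38a, a paralog of a carrier needed for haem synthesis, had 7.91, 7.47 and 8.62 in controls and 9.01, 7.52 and 7.97 at 5 Gy (ratio 0.17, standard error 0.459). The only erythrocyte marker measured, the globin hbae3, had a ratio of 0.15 and did not pass. Slc25a11, the oxoglutarate and malate carrier of the malate-aspartate shuttle, had tight controls of 10.51, 10.58 and 10.50 and 11.22, 10.45 and 10.61 at 5 Gy, so that here too 5 Gy replicate 1 was the highest pool (ratio 0.23, standard error 0.300). The remaining carriers (slc25a10b, slc25a21, slc25a29, slc25a34, slc25a40, slc25a42, slc25a43 and slc25a46) had ratios from -0.14 to 0.21, and none passed.

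**Figure D4:**
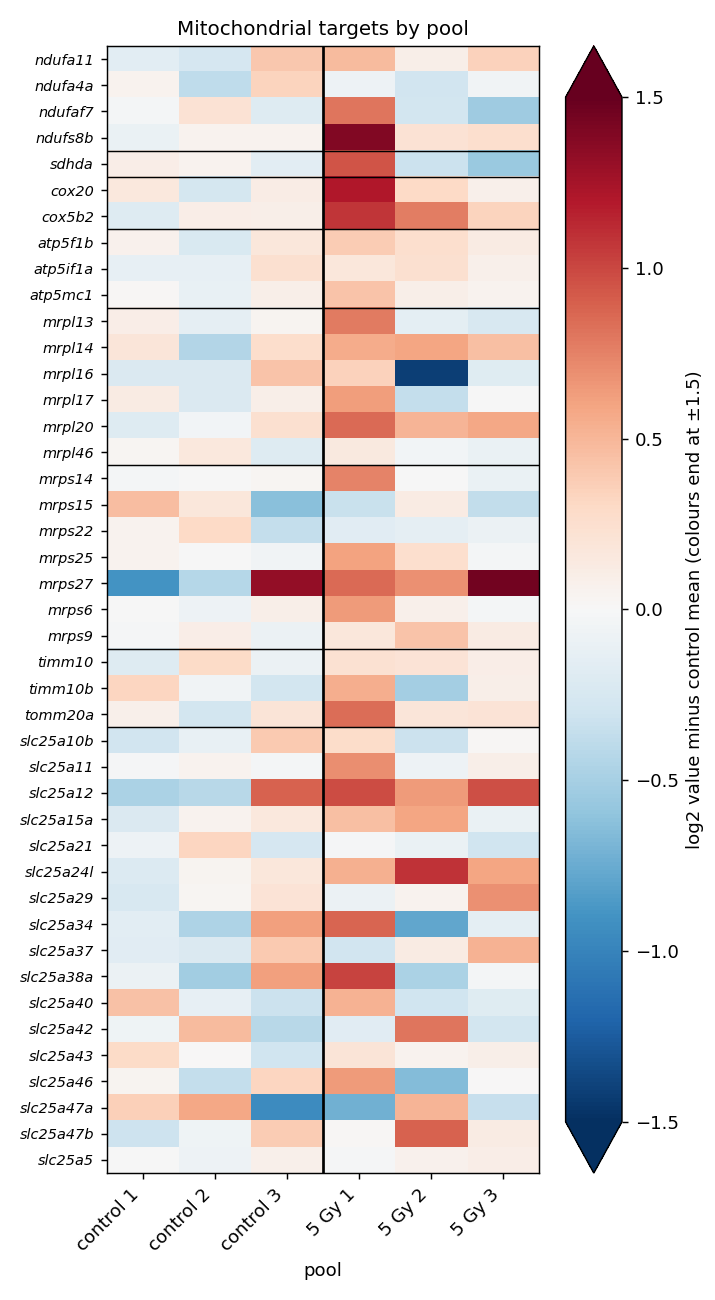
Log2 value of each target in each pool minus its mean over the 3 controls (red higher, blue lower, colours ending at 1.5 in either direction). The column of 5 Gy replicate 1 is the reddest, with a median of 0.52 over the 43 targets, against 0.09 and 0.06 in 5 Gy replicates 2 and 3.

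The higher levels at 5 Gy were concentrated in 1 pool. Relative to the control mean of each target, the median over the 43 members was 0.52 in 5 Gy replicate 1, 0.09 in replicate 2 and 0.06 in replicate 3, and it was -0.02, -0.07 and 0.09 in control replicates 1, 2 and 3. Over all targets the same pools at 5 Gy had medians of -0.01, -0.12 and -0.06, and over the targets with a symbol 0.18, -0.10 and 0.00. 5 Gy replicate 1 held the highest value of the 6 pools for 22 of 43 members (51.2%), compared with 31.9% of the targets with a symbol and 22.7% of all targets. It lay above all 3 controls for 26 members (60.5%, against 37.4% of the targets with a symbol and 27.5% of all targets), and replicates 2 and 3 did so for 12 and 13 members (27.9% and 30.2%, against 20.9% and 19.9% of the targets with a symbol and 22.6% and 19.8% of all targets). By group of proteins, 5 Gy replicate 1 was the highest pool for 8 of 10 respiratory chain and ATP synthase targets, 6 of 13 ribosomal targets, 2 of 3 import targets and 6 of 17 carriers. Without this pool the median ratio of the members was 0.09, with 26 of 43 above 0, and slc25a24l alone passed. No test was made over the members.

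**Figure D5:**
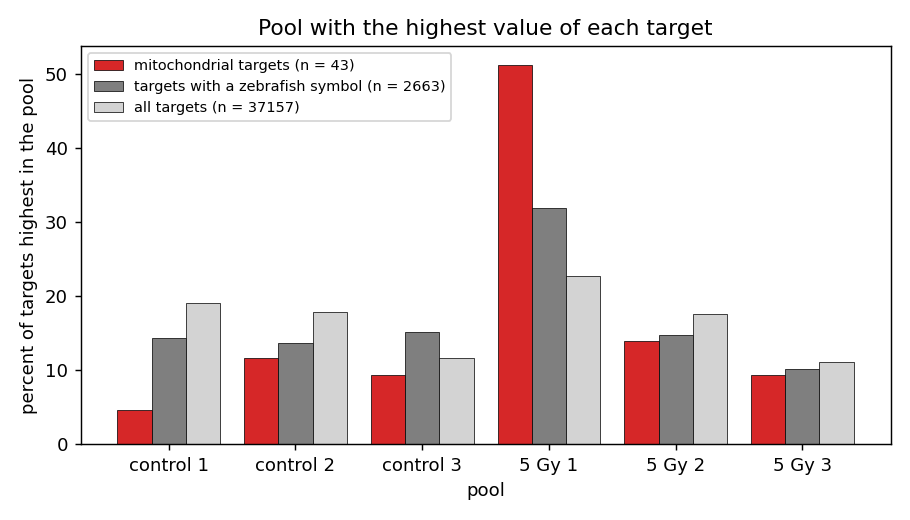
Share of targets whose highest value lies in each pool, in percent, for the 43 mitochondrial targets (red), the targets with a zebrafish symbol (dark grey) and all targets (light grey). 5 Gy replicate 1 takes 51.2% of the mitochondrial targets and 22.7% of all targets.

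Read within pairs of pools of the same number, 35 members were higher at 5 Gy in pair 1, 26 in pair 2 and 23 in pair 3, with median differences of 0.55, 0.09 and 0.02. The medians in pairs 1, 2 and 3 were 0.23, -0.09 and -0.04 over the targets with a symbol and 0.03, -0.15 and 0.00 over all targets. The difference was above 0 in every pair for 11 members and below 0 in every pair for none, against 402 and 368 of the 2663 targets with a symbol and 4775 and 5652 of all 37157. The groups did not overlap for 6 members, each higher at 5 Gy (cox5b2, mrpl14, mrpl20, mrps9, ndufs8b and slc25a24l). Higher without overlap were 2.78% of all targets and 92 of the 2663 with a symbol. No member was lower without overlap, against 4.7% of all targets and 112 of the 2663.

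Levels of markers and array quality also varied between pools, and not all in the pattern of the members. The photoreceptor sum and the erythrocyte marker hbae3 were highest in 5 Gy replicate 1, as were many members. The skeletal muscle sum was highest in 5 Gy replicate 2, with 104606, 106418 and 102803 in 5 Gy replicates 1, 2 and 3. Target by target, the muscle median over the control mean was 0.85, 0.57 and 0.22 in these pools. That median was highest in 5 Gy replicate 1, as for the members. 5 Gy replicates 1 and 2 were each the highest pool for 3 of the 6 muscle targets. The lens and heart sums were lowest in 5 Gy replicate 1 and the neuron sum in 5 Gy replicate 2. Sums weigh bright targets most. Target by target, 5 Gy replicate 1 was the lowest pool for 2 of 8 lens and 0 of 3 heart targets. Its median over the control mean was 0.31 for lens and -0.18 for heart. For heart that median was -0.50 in 5 Gy replicate 3. In the neuron list 5 Gy replicate 2 was the lowest pool for 6 of 8 targets. By the rule used for the members, 1.15% of all targets rose and 2.89% fell. In the skeletal muscle list 2 of 6 targets rose (pygma and smyd1b) and none fell, and the study lists PYGM and SMYD1 as higher. The summed linear intensity of this list was 85638 to 101356 in controls and 102803 to 106418 at 5 Gy. In the list of neurons and synapse 5 of 8 fell and none rose, with a sum of 9401 to 9651 in controls and 3809 to 8267 at 5 Gy. The study lists genes of this kind, such as GAD2, GRIA3 and SLC17A6, as lower. The marker lists were chosen with earlier results of these data known, so their counts are no independent evidence. In the lens list 3 of 8 rose, with a sum of 105497 to 113110 in controls and 100671 to 123121 at 5 Gy. None of the 3 heart targets passed, and their sum was 678 to 833 in controls and 602 to 781 at 5 Gy. Neither photoreceptor target passed, both were higher at 5 Gy in each pair, and their sum was 3596 to 5187 in controls and 4736 to 7060 at 5 Gy. The leukocyte marker spi1b did not pass, with an intensity of 108 to 288 in controls and 129 to 180 at 5 Gy, nor did hbae3, with 20592 to 24890 and 21925 to 31192. The slope of log2 intensity along the probes of a target, relative to the mean of the arrays and in order of probe number, was 0.244, 0.157 and -0.162 in control replicates 1, 2 and 3 and 0.00, -0.09 and -0.15 at 5 Gy over the 27415 targets with at least 10 probes. Over the 38 members with that many probes it was 0.371, -0.137 and -0.078 in controls and -0.02, -0.04 and -0.09 at 5 Gy, so control replicate 2 had the opposite sign in the members. With that slope as a covariate, a fit added after seeing the data, none of the 43 members passed, and the ratios were 0.74 for cox5b2 (unadjusted p = 0.0675), 0.54 for mrpl20 (unadjusted p = 0.120) and 0.61 for slc25a24l (unadjusted p = 0.0986). The part of tissue makeup or array quality in these differences was not tested.

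The calls are read here against the share of all targets called in each setting, higher and then lower. With pools blocked by number, 3.61% and 5.19% of all targets passed and 3 members did (slc25a12, mrps27 and slc25a24l). A further quantile normalization gave 1.16% and 2.89% and median centring 1.4% and 2.5%, both with cox5b2, mrpl20 and slc25a24l. The mean of probes gave 1.29% and 2.57%, with cox5b2 and slc25a12, and the median of probes gave 1.37% and 2.56%, with no member. Subtracting the lowest intensity gave 0.985% and 2.75%, with cox5b2 and mrpl20. A trend gave 1.11% and 3.05% and added slc25a12 to the 3. Leaving out the dimmest 25% of targets gave 1.2% and 2.94%, with cox5b2. Array weights called 12.7% and 16.7% of all targets and 5 members, each higher. The methods' paired t-test called 0.433% and 0.484%, and no member. Without control replicate 1 the shares were 0.28% and 0.549% and without control replicate 2 0.301% and 0.533%, with no member in either. Without control replicate 3 they were 7.81% and 11.4%, with 4 members, all higher. Without 5 Gy replicate 1 they were 1.85% and 2.65% (slc25a24l), without 5 Gy replicate 2 0.719% and 1.69% (mrpl20), and without 5 Gy replicate 3 1.36% and 2.77% (cox5b2). The slope covariate gave 0.554% and 0.928%, with no member, and leaving out both pools numbered 3 gave 5.72% and 9.25%, with 4 members, all higher.

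Mitochondrial genes outside the named families were also measured. Of 24 targets in 4 lists of such genes, 1 rose, none fell and 23 did not pass. Over all targets 1.15% rose, 2.89% fell and 4.04% changed in either direction. The median ratio of the 24 was 0.11. Among them 5 Gy replicate 1 was the highest pool for 16 (66.7%), against 31.9% of the targets with a symbol and 22.7% of all targets. Ears2, the mitochondrial glutamyl-tRNA synthetase, rose by 0.96 (standard error 0.405, unadjusted p = 0.0436 from limma), with 7.60, 7.95 and 8.84 in controls and 9.62, 8.72 and 8.93 at 5 Gy, but its groups overlapped and it did not pass by the methods' t-test. It was 1 of 7 measured genes of mitochondrial gene expression. None of 5 targets of the TCA cycle and pyruvate dehydrogenase passed, none of 5 of cytochrome c, assembly and other respiratory genes and none of 7 of chaperones, proteases, dynamics and channels. In the first of these lists pdk2b, a paralog of a kinase that switches off pyruvate dehydrogenase, was picked after its values were seen. Its ratio was the highest of the 24 targets. It had 11.77, 8.35 and 7.52 in controls and 11.68, 10.97 and 10.83 at 5 Gy (ratio 1.95, standard error 0.960, unadjusted p = 0.076 from limma). The controls spanned more than the difference between groups. It passed in limma with pools blocked by number (unadjusted p = 0.00792). The TCA cycle enzymes fh, idh2 and mdh2, also chosen by no rule, had ratios of 0.34, -0.02 and -0.03. These lists too cover only targets with a RefSeq mRNA identifier and a symbol. Under other identifiers, the study lists PDSS1 and PMPCA, which belong to these lists, as higher. The lists do not hold every mitochondrial gene, so PDSS1 and PMPCA do not stand for others that the study names.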

How the data were processed

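RNA of 6 pools was hybridised to one-colour NimbleGen arrays. The authors extracted signal in NimbleScan and applied quantile normalization; what they deposited is a linear intensity for each of 385000 probes per array. RMA is named in the submitters' processing notes, but probes are not combined in these values, and background subtraction is not given in the sources used here. All 6 columns were used.

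For each target, probe log2 intensities were reduced by median polish (tolerance 0.01, up to 10 iterations). Limma 3.58.1 (lmFit, eBayes; R 4.3.3; package data.table, version 1.17.8) was fitted over all 37157 targets with Benjamini-Hochberg adjustment. "Rose", "fell" and "passed" mean an unadjusted p below 0.05 and at least 1.5-fold, as in the methods. RefSeq mRNA identifiers were on 3055 targets and gave a symbol for 2663 (RefSeq zebrafish annotation GRCz12tu, names only). The scripts were tested on simulated data.

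Members and lists were chosen with earlier results of these data known, so their counts are no independent evidence. Described by rule were every called member, the 3 of each group with the smallest p (the ribosome counted as 1 group) and paralog pairs ending in a and b. Others are marked as picked after their values were seen.

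Deviations from group means correlated at 0.150, 0.239 and 0.497 between pools numbered 1, 2 and 3, and pools of unlike number at -0.408 to 0.166 (control 1 with 5 Gy 2 the highest, above the matched value of number 1). All 3 matched values passed 0.1, and by that rule the number served as a block in an alternative fit. Deviations sum to 0 within each group, so these values depend on each other and do not show that pools numbered 1 or 2 are paired. The study does not state that pools of the same number share a clutch. The other settings are listed in the report. The slope covariate and leaving out both pools numbered 3 were added after seeing the data.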

Additional observations from a re-analysis of the deposited data

How the results depend on the processing

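Cox5b2, mrpl20 and slc25a24l were higher at 5 Gy in every setting that could be fitted for them, but their calls sat near the threshold. The number of members called was 3 in limma and also 3 with the replicate block, 0 with the median of probes, 0 by the methods' paired t-test, 0 with the probe-order slope as a covariate, 1 without the dimmest 25% of targets (slc25a24l is then not tested) and 5 with array weights. Leaving out 1 pool gave 0 to 4, with 4 only without control replicate 3. The median ratio of the members lay between 0.09, without 5 Gy replicate 1, and 0.29, without both pools numbered 3. Blocking by replicate changed the calls of cox5b2, mrpl20, slc25a12 and mrps27 and no other call among the members described by rule.

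In the lists of other mitochondrial genes, 1 target was called in limma. The number was 2 with the replicate block and with the mean of probes (ears2 and pdk2b), 0 with the lowest intensity subtracted, with a trend and by both forms of the methods' t-test, and 4 with array weights (2 higher and 2 lower). Leaving out 1 pool gave 0 to 1.

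Of the 20 members described by rule, 4 changed sign in some settings, none of them called. Uncalled members outside the rule also did, such as slc25a10b (-0.01, and 0.31 with the mean of probes). Slc25a47a was 0.26 with the slope covariate, and -0.65 to 0.11 with 1 pool left out. Ndufa4a was 0.0908 with array weights, and -0.33 to 0.0275 with 1 pool left out. Sdhda was -0.32 with array weights, and -0.44 to 0.31 with 1 pool left out. Timm10b was -0.00713 with the mean and -0.32 with the median of probes, -0.12 without both pools numbered 3, and -0.21 to 0.32 with 1 pool left out. The cause was not tested. Signal over background limits slc25a24l, slc25a29, slc25a37 and ndufs8b, which are dim.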
